A study of Saccharomyces cerevisiae with 10 samples.

Results

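The genes described here encode proteins of the cytoplasmic small ribosomal subunit of budding yeast (RPS genes). A list of 38 systematic names defines them, by a rule that uses gene names and no measured value, among 5373 genes listed for at least 1 strain. The tables of all 5 strains list 37 of the 38, and these are called the members. RPS6A (YPL090C), whose protein is phosphorylated downstream of the TORC1 kinase, is listed for no strain and is not analysed here. Of the 37, 28 form 14 pairs of duplicate genes (copies A and B) with both copies listed, and the other 9 stand without a listed partner among the members. Among these are RPS2, RPS3, RPS4A, RPS12, RPS13, RPS15, RPS20 and RPS31.

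The small subunit binds the mRNA, holds the decoding centre where codon and anticodon pair, and is built from ribosomal RNA and a set of proteins that enter in order during assembly in the nucleolus, nucleus and cytoplasm. Yeast kept many of these genes as pairs after an ancient genome duplication, and the copies of a pair encode identical or nearly identical proteins. The genes belong to the most strongly expressed of growing yeast, are transcribed under Rap1, Fhl1, Ifh1 and Sfp1, and respond together to nutrient and growth signals.

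The study tested how tRNA supply affects translation, by ribosome profiling, in which the mRNA stretches protected by ribosomes are sequenced, and by sequencing of mRNA fragments. Each of 5 strains is represented by 1 footprint library and 1 mRNA library, harvested at an OD of 0.6. The wild-type strain carried no plasmid. In ACA-K, 3 of the 4 gene copies of the threonine tRNA tT(UGU), which reads the codon ACA, were deleted and replaced by markers against nourseothricin, kanamycin and hygromycin B. WT-URA was wild-type yeast with the multicopy plasmid pRS426, which carries URA3. AGG-OE carried the arginine tRNA gene tR(CCU)J, which reads AGG, on pRS426. AGG-QC carried on pRS426 the gene tR(UCU)B with its anticodon changed to CCU, so that another tRNA body reads AGG. Both AGG strains kept their own tRNA genes and were compared with WT-URA, and ACA-K was compared with wild-type. In lists of 5 values below, the strains follow the order of this paragraph, namely wild-type, ACA-K, and then with plasmid WT-URA, AGG-OE, AGG-QC. The AGG-OE and AGG-QC comparisons share the WT-URA libraries, and WT-URA is itself compared with wild-type, so the comparisons are not independent.

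With 1 library of each kind per strain there was no replicate error, and no test between strains was made. Total footprints ranged from 6011287 in AGG-QC to 29706058 in wild-type. A level below is the number of footprints per codon (stop codon included), scaled to 1000000 footprints over the 4964 genes listed in all 5 strains, and is called scaled footprints per codon. The translation efficiency (TE) of a gene is its share of the footprints divided by its share of the mRNA signal, so that 1 stands for the ratio of the whole libraries. Intervals are exact 95% binomial intervals and cover counting error only. The unit of the mRNA signal is not named, so neither mRNA nor TE has an interval. A gene is counted as higher or lower when its ratio passes 1.5-fold. URA3, the plasmid marker, had 137431 (WT-URA), 60442 (AGG-OE) and 18950 (AGG-QC) footprints, and neither strain without the plasmid has it listed.

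The 37 members held 6.44% (95% interval 6.44 to 6.45), 5.74% (5.73 to 5.75), 4.45% (4.43 to 4.46), 4.69% (4.68 to 4.71) and 3.36% (3.35 to 3.38) of all footprints in the 5 strains. The share was highest in wild-type and lowest in AGG-QC, and no intervals overlapped. Their share of the mRNA signal was 6.46%, 6.08%, 4.62%, 5.32% and 3.96%. Both kinds of library put the 5 strains in the same order. The large-subunit protein genes, 71 in number, held 10.01%, 8.92%, 7.30%, 7.70% and 5.57% of the footprints, again in the same order.

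**Figure D1:**
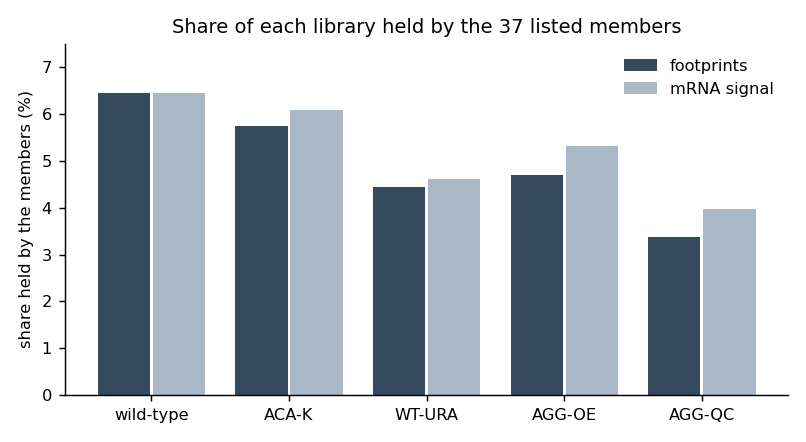
Share (%) of all footprints (dark bars) and of the mRNA signal (light bars) held by the 37 listed members in each strain, 1 library per bar. Footprint shares run from 6.44% in wild-type to 3.36% in AGG-QC.

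In wild-type, the level of the median member was 8.86 scaled footprints per codon, beside 0.105 for the median of all genes. The members spread 39.3-fold in footprints and 44.4-fold in mRNA signal per codon, and 2.37-fold in TE. Their median TE was 1.02, 0.960, 1.002, 0.921 and 0.872 in the 5 strains, where the median of all genes was 0.553, 0.570, 0.562, 0.562 and 0.608. A TE above the median of all genes was found for 37, 35, 35, 33 and 29 members.

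**Figure D2:**
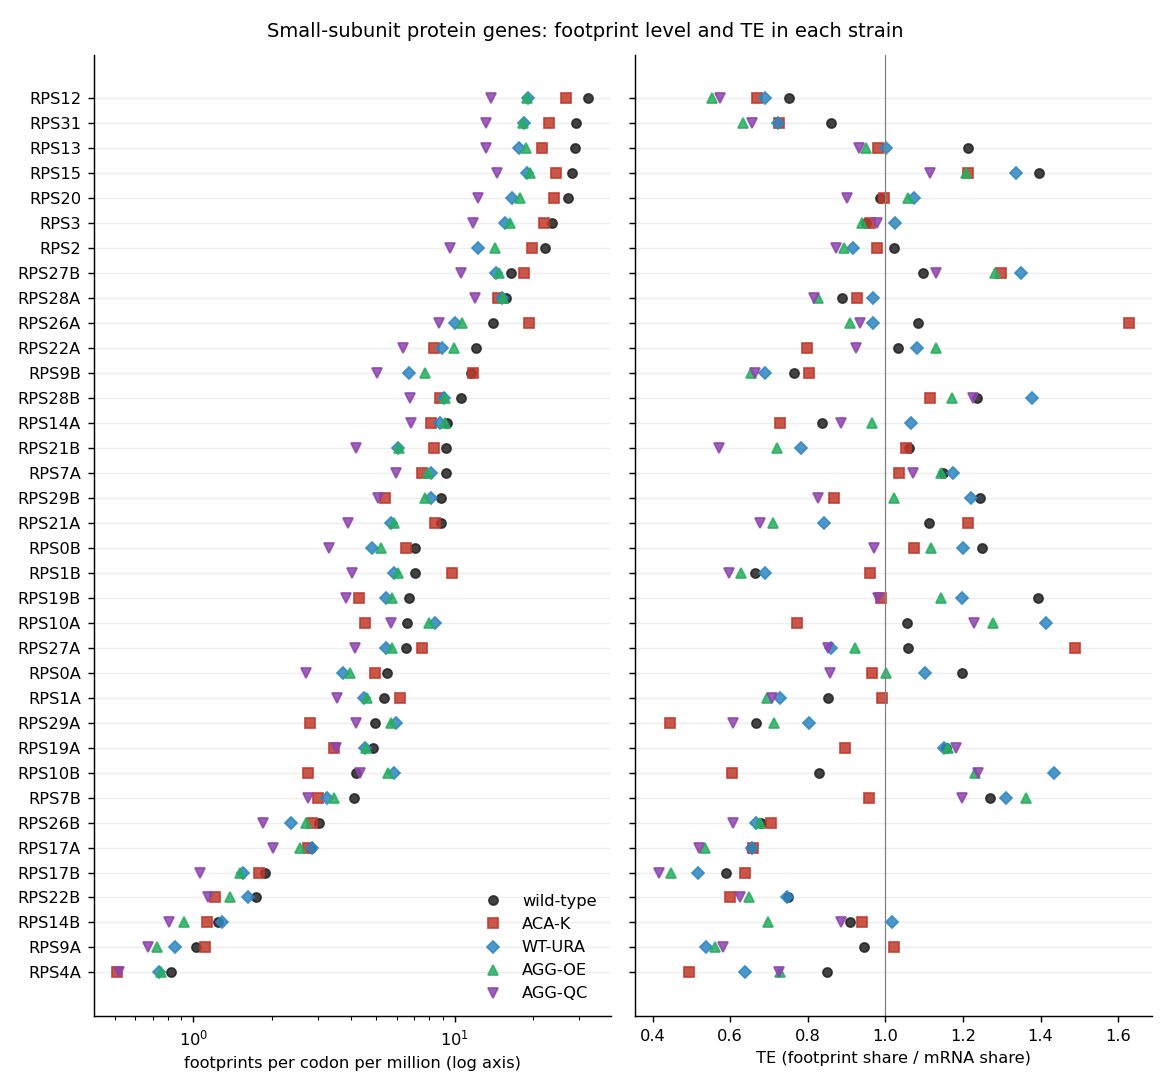
Scaled footprints per codon (left, per 1000000 footprints, log axis) and TE (right, the grey line marks 1) of 36 members in the 5 strains, 1 symbol per strain, ordered by the wild-type level. The genes without a listed partner fill the top of the left panel except RPS4A, which is last.

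The members without a listed partner had the highest levels. RPS12 (YOR369C), a protein of the beak of the subunit, stood at 32.4, 26.7, 19.1, 18.9 and 13.8 scaled footprints per codon. RPS31 (YLR167W), which is made as a fusion to ubiquitin, stood at 29.2, 22.9, 18.5, 18.3 and 13.2. RPS13 (YDR064W), which binds the platform early in assembly, stood at 29.0, 21.6, 17.7, 18.8 and 13.2. For each of these genes wild-type was the highest strain and AGG-QC the lowest.

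Other members without a listed partner were close behind. RPS15 (YOL040C), whose tail reaches the decoding centre and which is needed for export of the precursor subunit, had a wild-type level of 28.3. RPS20 (YHL015W), a protein of the head, had 27.1. RPS3 (YNL178W) and RPS2 (YGL123W), which line the mRNA entry channel, had 23.6 and 22.1. In wild-type the 8 members without a listed partner other than RPS4A all stood above the highest copy of a pair, RPS27B (YHR021C), at 16.4. In ACA-K their lowest level was 19.7 and the highest copy, RPS26A, had 19.3, whereas in the 3 plasmid strains the lowest of the 8 (12.3, 14.3 and 9.59) lay below the highest pair copy (15.2, 15.3 and 12.02).

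At the other end, RPS4A (YJR145C), a protein of the body, stood at 0.82, 0.51, 0.74, 0.75 and 0.52. RPS9A (YPL081W) stood at 1.02, 1.11, 0.85, 0.73 and 0.67, and RPS14B (YJL191W) at 1.24, 1.13, 1.28, 0.92 and 0.81. RPS9 proteins lie near the mRNA entry channel, and RPS14 proteins lie on the platform. In RPS4A, 62.98% of the codons held no footprint in any strain, and the longest empty run covered 43 codons from codon 24. The RPS4A level is therefore a sum over the few codons that received reads. Reads that matched more than 1 place in the genome had been removed, and the partner RPS4B is not a member.

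In wild-type the other copies of pairs lay between these ends. At the mRNA exit channel, RPS28A (YOR167C) stood at 15.8, 14.7, 15.2, 15.3 and 12.02 in the 5 strains and RPS28B (YLR264W), which has a part in decay of its own mRNA, at 10.6, 8.78, 9.11, 9.22 and 6.73. RPS1A (YLR441C), on the platform beside it, stood at 5.39, 6.17, 4.50, 4.64 and 3.56. In RPS28A the first 4 strains were close together and AGG-QC was lowest, whereas RPS1A was highest in ACA-K. At the mRNA entry side, RPS10A (YOR293W) stood at 6.56, 4.53, 8.39, 7.95 and 5.69 and RPS10B (YMR230W) at 4.21, 2.75, 5.88, 5.56 and 4.33. Both RPS10 genes were highest in WT-URA and lowest in ACA-K, unlike most members.

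RPS0A stood at 5.52, 4.95, 3.74, 3.98 and 2.71, and RPS22A (YJL190C), which binds the central domain of the RNA, at 12.1, 8.36, 8.97, 9.97 and 6.36. RPS7A (YOR096W) stood at 9.28, 7.54, 8.14, 7.92 and 5.95. These genes were highest in wild-type and lowest in AGG-QC. RPS19A stood at 4.87, 3.45, 4.53, 4.57 and 3.51, with ACA-K and AGG-QC nearly equal and below the other strains. RPS17A stood at 2.82, 2.75, 2.85, 2.56 and 2.02, and its levels in wild-type, ACA-K and WT-URA were nearly equal.

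The share of empty codons varied widely among the members. RPS2, RPS3, RPS12, RPS15 and RPS20 had no codon that was empty in all 5 strains. In RPS13 2.63% and in RPS31 9.80% of codons were empty throughout. Among members of pairs the share ran from 1.47% in RPS28A, 2.94% in RPS28B and 3.05% in RPS22A, below that of RPS31, to 31.7% in RPS14B. It was 28.5% in RPS17B, 27.0% in RPS17A, 25.5% in RPS19A and 24.6% in RPS14A. In both RPS19 genes the longest empty run covered codons 120 to 141, and in both RPS7 genes it covered codons 145 to 152. Such stretches add length but no footprints to the level of a copy.

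TE spread less than the levels did. The highest wild-type values were those of RPS15 (1.40) and RPS19B (YNL302C, 1.39), whose human counterpart is the gene most often mutated in Diamond-Blackfan anaemia. The lowest were those of RPS17B (YDR447C, 0.59), RPS17A (YML024W, 0.65), which encode a protein of the head, and RPS1B (YML063W, 0.66), a platform protein at the mRNA exit. RPS17B was also lowest in each plasmid strain (0.52, 0.45 and 0.42), while in ACA-K the lowest was RPS29A (YLR388W, 0.44).

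The 2 copies of a pair differed by very unequal amounts. In wild-type the higher copy was at least 1.5-fold above the other in 9 of 14 pairs. RPS9B (YBR189W) had 11.3 times as many footprints per codon as RPS9A, RPS14A (YCR031C) 7.58 times as many as RPS14B, and RPS22A (YJL190C) 6.97 times as many as RPS22B (YLR367W). The mRNA signal of these pairs differed by 14.0, 8.23 and 5.06 times in the same direction. The smallest differences were those of RPS21B (YJL136C) over RPS21A (YKR057W), 1.051 times, and of RPS0B (YLR048W) over RPS0A (YGR214W), 1.28 times. The proteins of these 2 pairs bind each other and are needed for maturation of the small-subunit RNA.

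The order of the copies was kept across strains. In 13 of 14 pairs the same copy was higher in all 5 strains, and the exception, RPS21, had near-equal copies and the same order in 4. The ratio of RPS9B to RPS9A was 11.3, 10.6, 7.94, 10.6 and 7.48. The ratio of RPS14A to RPS14B was 7.58, 7.21, 6.84, 10.03 and 8.46, highest in AGG-OE. The ratio of RPS26A to RPS26B was 4.65, 6.77, 4.24, 3.95 and 4.72, highest in ACA-K, where 1 codon of RPS26A held most of its footprints.

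**Figure D3:**
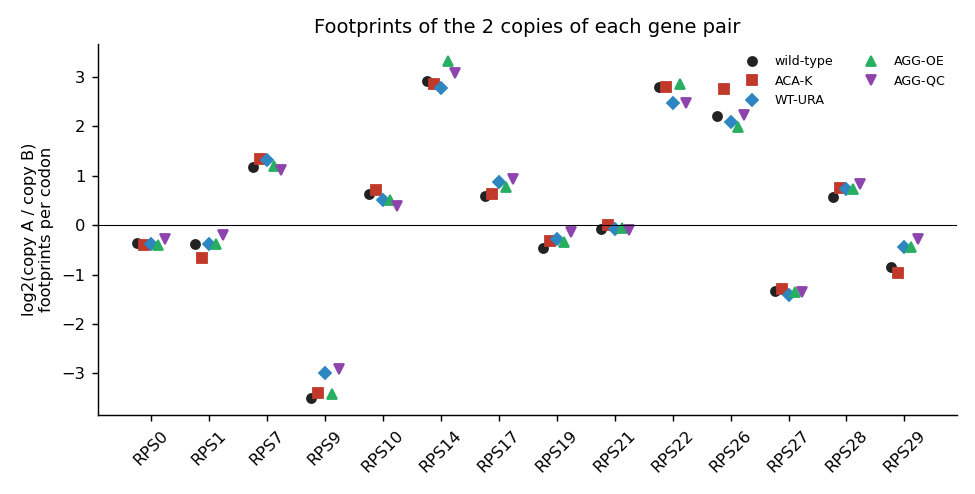
Log2 ratio of footprints per codon, copy A over copy B, for the 14 pairs, 1 symbol per strain. Points above 0 mean a higher copy A; only RPS21 has symbols on both sides of 0.

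In ACA-K most members had lower footprint levels than in wild-type. The median log2 ratio was -0.17, beside -0.03 for all genes, and 30 of 37 members were below 0, against 55.4% of all genes. No member was 1.5-fold higher (1.55% of all genes were), and 5 were 1.5-fold lower (2.58% of all genes). These were RPS29A, RPS29B, RPS4A, RPS19B and RPS10B. An alternative chosen after seeing the data left the highest codon of each strain out of every gene. RPS29A (-0.89), RPS29B (-0.73) and RPS19B (-0.63) then stayed past 1.5-fold, and RPS4A (-0.58) and RPS10B (-0.38) did not. Of all 4964 genes, 198 passed it in either direction with these codons left out. RPS4A lay close to the cut, and with library totals that kept these codons it had -0.61 and stayed past it. The 9 members without a listed partner were all below 0, with a median of -0.21. In 29 members the interval of the ratio lay wholly below 0 and in 7 wholly above. These intervals cover counting error only, and they were not counted over all genes.

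RPS29A, a zinc-binding protein of the head, stood at 4.96 scaled footprints per codon in wild-type and 2.80 in ACA-K, a log2 ratio of -0.82 (-0.88 to -0.77). Its copy RPS29B (YDL061C) stood at 8.91 and 5.44, a log2 ratio of -0.71 (-0.75 to -0.67). Both copies thus had lower levels, and by similar amounts. RPS4A had -0.69 (-0.75 to -0.63), RPS19B -0.63 (-0.66 to -0.60) and RPS10B (YMR230W) -0.62 (-0.66 to -0.57), where RPS10 proteins lie at the mRNA entry side of the head.

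The mRNA signal of the members differed much less. Its median log2 ratio was -0.12 (all genes -0.08), it ran from -0.30 in RPS27A (YKL156W) to 0.15 in RPS0A, and no member was 1.5-fold higher (0.705% of all genes) or lower (2.82%). RPS29A (-0.24) and RPS21A (-0.21) followed RPS27A at the low end, and RPS0B (0.10) and RPS4A (0.10) were next to RPS0A at the high end. The median log2 ratio of TE was -0.15, beside 0.03 for all genes. TE was 1.5-fold lower in 2 members, RPS4A (-0.79) and RPS29A (-0.59), beside 1.75% of all genes, and RPS29B followed at -0.52. No member was 1.5-fold higher in TE (3.51% of all genes), although RPS26A (0.58), RPS1B (0.53) and RPS27A (0.49) came near.

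The members with the highest footprint ratios in ACA-K had large shares of their footprints on single codons. RPS1B stood at 7.03 in wild-type and 9.82 in ACA-K, a log2 ratio of 0.48 (0.47 to 0.50). RPS26A (YGL189C), which lines the mRNA exit channel, stood at 14.1 and 19.3, a log2 ratio of 0.46 (0.44 to 0.48). RPS27A, a zinc-binding protein, had 0.20 (0.16 to 0.23). With the highest codons left out as above, the log2 ratios were 0.07 in RPS1B, -0.02 in RPS26A and 0.09 in RPS27A. The log2 TE ratios without these codons were 0.12, 0.11 and 0.38.

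In RPS26A, codon 5 alone held 44.1% of the footprints in wild-type (43.7 to 44.6) and 60.6% in ACA-K (60.2 to 61.0), but 13.7%, 12.7% and 17.1% in the plasmid strains. Within ACA-K this was the largest share that any codon held among 4325 genes of more than 50 codons with at least 100 footprints in each strain. The copy RPS26B (YER131W) had 12 of 10726 footprints at its codon 5 in wild-type and 7 of 7444 in ACA-K. In RPS1B, codon 19 held 6.79% in wild-type (3608 footprints), 31.5% in ACA-K (17196 footprints), and 2.90%, 3.07% and 2.37% in the plasmid strains. The same codon of RPS1A (YLR441C) held 2.52% in wild-type and 11.9% in ACA-K, and 2.66% to 3.03% in the plasmid strains. The codons' identity was not analysed here, and whether they read ACA was not tested.

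**Figure D4:**
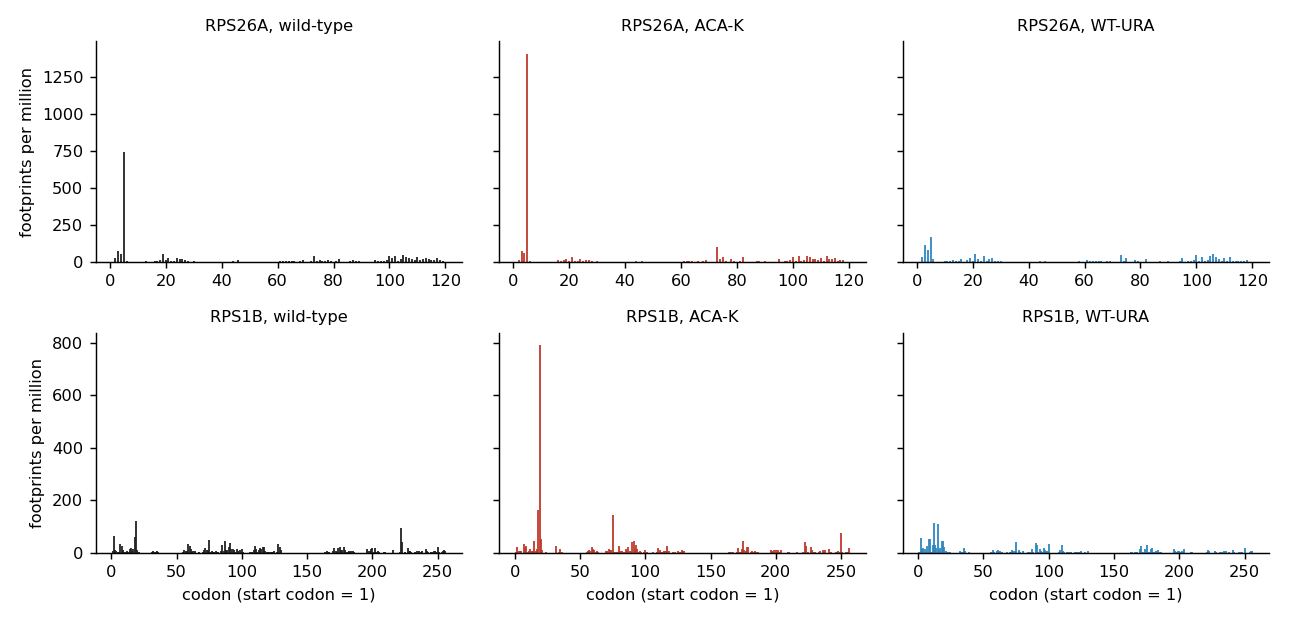
Footprints per 1000000 at each codon of RPS26A (top) and RPS1B (bottom) in wild-type, ACA-K and WT-URA, with a shared vertical axis in each row. Codon 5 of RPS26A and codon 19 of RPS1B reach 1406 and 791 per 1000000 in ACA-K.

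Other members had a codon that stood out in ACA-K or in every strain. Codon 48 of RPS21A held 19.4% in wild-type and 32.5% in ACA-K, and codon 97 of RPS14A held 10.7% and 20.7%. Codon 77 of RPS27A held 5.54% and 19.04%, where codon 77 of RPS27B held 0.425% and 0.692%. By contrast, codon 32 of RPS19B held 20.8%, 22.1%, 20.0%, 20.7% and 21.3%, a near-constant share. Codon 2 of RPS10B moved the other way and held 22.0% in wild-type and 7.19% in ACA-K. Such a difference was not particular to it. The median density of codons 2 to 5, relative to the whole gene, was 1.65 in wild-type and 1.03 in ACA-K over members. Over the 4325 genes it was 1.69 and 1.01. More than 15% of the footprints on 1 codon was found for 8, 9, 10, 11 and 8 of the 37 members, beside 46, 121, 160, 198 and 122 of the 4325 genes and 8, 15, 18, 18 and 17 of 69 large-subunit genes among them.

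In AGG-OE the members' footprint levels were close to those in WT-URA. The median log2 ratio was 0.03, beside -0.11 for all genes, and 12 of 37 members were below 0, against 67.3% of all genes. No member was 1.5-fold higher (1.85% of all genes) or lower (5.04%). RPS2 was highest at 0.21 (0.19 to 0.23), with levels of 14.3 in AGG-OE and 12.3 in WT-URA. RPS9B (0.20) and RPS26B (0.19) came next. The mRNA signal had a median of 0.16 (all genes -0.10), with RPS12 at 0.30, RPS21A at 0.28 and RPS9B at 0.28. Again no member was 1.5-fold higher (1.05% of all genes) or lower (3.99%) in mRNA.

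The largest departure in AGG-OE was RPS14B, whose protein represses splicing of its own precursor mRNA. It stood at 0.92 scaled footprints per codon in AGG-OE and 1.28 in WT-URA, a log2 ratio of -0.48 (-0.59 to -0.37), while its mRNA ratio was 0.06. It had the lowest TE ratio, -0.54, followed by RPS12 (-0.32) and RPS17A (-0.30). RPS22B (-0.23) and RPS9A (-0.22) were next in footprints, and RPS9A (-0.28), RPS4A (-0.15) and RPS27A (-0.03) were lowest in mRNA. The median TE ratio was -0.12 (all genes 0.00), the highest was 0.19 in RPS4A, and no member was 1.5-fold higher (1.81% of all genes) or lower (2.36%) in TE.

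In AGG-QC every one of the 37 members had a lower footprint level than in WT-URA, against 37.7% of all genes. All 37 intervals lay below 0, but they cover counting error only and were not counted over all genes. The median log2 ratio was -0.45 (all genes 0.08), within a narrow range from -0.67 to -0.20. Of the members, 2 passed 1.5-fold lower (1.39% of all genes) and none higher (3.16%). Relative to the median gene, 11 members were 1.5-fold lower, a count that was not made over all genes. The range over members was narrower here than in the other comparisons.

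RPS14B stood at 0.81 scaled footprints per codon in AGG-QC and 1.28 in WT-URA, a log2 ratio of -0.67 (-0.81 to -0.54), and RPS29B at 5.11 and 8.13, -0.67 (-0.75 to -0.59). Without the highest codons RPS14B (-0.66) stayed past 1.5-fold and RPS29B (-0.55) did not, while 245 of all 4964 genes passed it in either direction. RPS10A (YOR293W) had -0.56. The smallest differences were those of RPS26A (-0.20) and RPS7B (YNL096C, -0.24), a target of the ubiquitin ligase Not4. The pairs (median -0.46) and the members without a listed partner (median -0.42) differed alike.

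The mRNA signal of all 37 members was also lower in AGG-QC, beside 2839 of all 4964 genes. Its median log2 ratio over members was -0.23 (all genes -0.04). RPS4A (-0.69) was the only member 1.5-fold lower in mRNA (2.48% of all genes), with none higher (3.16%), and RPS14B (-0.47) and RPS9A (-0.44) followed. RPS21B (-0.07), RPS28A (YOR167C, -0.10) and RPS0A (-0.10) differed least. The median TE ratio was -0.21 (all genes 0.10), and 34 members were below 0, beside 1833 of all 4964 genes. TE was lowest in RPS29B (-0.56), RPS21B (-0.46) and RPS29A (-0.40) and highest in RPS4A (0.18), RPS9A (0.11) and RPS19A (YOL121C, 0.04). No member was 1.5-fold higher (5.38% of all genes) or lower (2.05%) in TE.

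**Figure D5:**
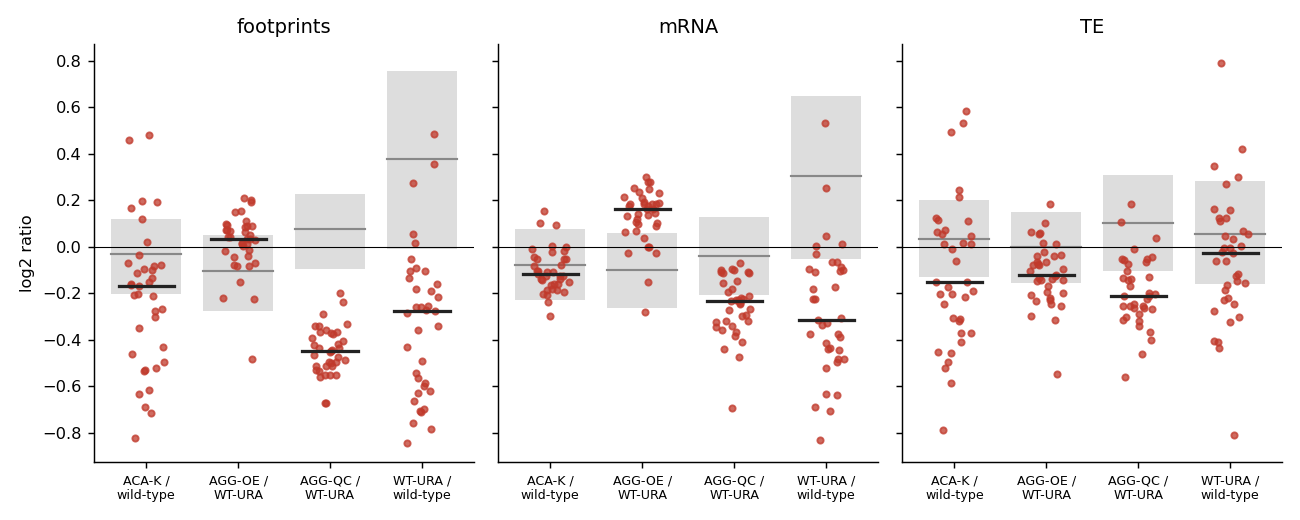
Log2 ratios of the 37 members (red points, black line their median) in footprints, mRNA signal and TE for the 4 comparisons, with the interquartile range of all genes (grey band) and their median (grey line). In AGG-QC all members lie below 0 in footprints and in mRNA.

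In WT-URA against wild-type the members had a median log2 ratio of -0.28 in footprints, where all genes had 0.38, the widest gap between members and all genes among the 4 comparisons. Of the members, 10 were 1.5-fold lower (8.92% of all genes) and none was 1.5-fold higher (35.3%). Relative to the median gene, 23 members were 1.5-fold lower in footprints and 20 in mRNA, counts that were not made over all genes. Of the 9 members without a listed partner, 7 were 1.5-fold lower, and 3 of the 28 copies of pairs. RPS2 had -0.84 (-0.86 to -0.82), RPS9B -0.78 and RPS12 -0.76, while RPS10B (0.48), RPS10A (0.35) and RPS29A (0.27) were highest. RPS26A had -0.49 with all codons and 0.16 with the highest codons left out.

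The mRNA signal of the members had a median of -0.32 (all genes 0.30), with 5 members 1.5-fold lower (7.43% of all genes) and none higher (28.6%). RPS20 (-0.83), RPS3 (-0.71) and RPS2 (-0.69) were lowest, and RPS9A (0.53), RPS4A (0.25) and RPS27A (0.05) highest. TE had a median of -0.03 (all genes 0.05). It was 1.5-fold higher in RPS10B (0.79; 8.4% of all genes) and 1.5-fold lower in RPS9A (-0.81; 3.04%). RPS10A (0.42) and RPS14A (0.35) were next at the high end, and RPS21B (-0.44) and RPS4A (-0.41) at the low end. The plasmid, the selection for it and the libraries themselves cannot be told apart in this comparison.

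The footprints were also placed differently along the members in the strains with the plasmid. The density in the first of 5 equal segments of the coding sequence without the stop codon, relative to the whole gene, had a median over members of 0.888 in wild-type and 0.905 in ACA-K, but 1.65, 1.63 and 1.64 in the plasmid strains. All genes had 1.22 and 1.26, and 1.86, 1.70 and 1.68. The stop codon had a median relative density of 0.628 in wild-type and 1.93 in ACA-K. In the plasmid strains it had 0.916, 0.472 and 0.322. All genes had 0.262 in wild-type and 0.687 in ACA-K, and the large-subunit genes 0.449 and 2.00. Pearson's r between the codon profiles of a member in 2 strains, on log2(count + 1) over its codons and so a description only, had medians of 0.94 (ACA-K to wild-type), 0.97 (AGG-OE to WT-URA), 0.95 (AGG-QC to WT-URA) and 0.82 (WT-URA to wild-type). The lowest was 0.44, in RPS12 between WT-URA and wild-type. With the first 25% of codons left out, the median log2 footprint ratio of the members in WT-URA against wild-type was -0.47 in place of -0.28, and in ACA-K it was -0.20 in place of -0.17.

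Genes related to the members were described as lists. The large-subunit protein genes had median log2 footprint ratios of -0.21 (ACA-K), 0.02 (AGG-OE), -0.43 (AGG-QC) and -0.39 (WT-URA against wild-type), and in AGG-QC 70 of 71 were below 0. The 15 other small-subunit genes, those with an RPS symbol that are not among the members, had -0.41, -0.02, -0.55 and -0.22. Genes of the mitochondrial small subunit (20) had -0.08, -0.23, 0.11 and 0.65, and so did not follow the cytoplasmic subunits in AGG-QC. The 16 assembly and export factors had 0.08, 0.37, 0.00 and -0.88, and the 7 listed transcription regulators -0.17, 0.06, 0.16 and -0.07.

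Among the assembly factors, RRP12 (YPL012W), an export factor, had the largest difference between the control strains, a footprint log2 ratio of -1.44, and 12 of 16 were 1.5-fold lower in WT-URA (8.92% of all genes). In AGG-OE 2 of them were 1.5-fold higher (1.85% of all genes) and none lower (5.04%). None of the 7 transcription regulators passed 1.5-fold in footprints in any comparison, and ABF1 (YKL112W) in ACA-K had a footprint ratio of -0.45. In AGG-QC RAP1 (YNL216W) had a footprint ratio of 0.19 and an mRNA ratio of -0.25, and SFP1 (YLR403W) had 0.35 and -0.13. HMO1 (YDR174W) went the other way, with -0.14 and 0.02. Of the 7 regulators, 6 were above 0 in footprints and 3 in mRNA. The members themselves were lower in both quantities.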

How the data were processed

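Ribosome footprints and mRNA were measured in 5 strains, 1 library of each per strain. The rule for the members uses gene names alone, but the members and gene lists were chosen with earlier results of these data known. The authors aligned reads with Bowtie 1.0.0 to SGD assembly R63, dropped reads with several matches, gave each footprint its codon, and deposited raw footprint counts per gene and per codon. The mRNA signal was deposited by the authors as a whole number for each gene, with no unit named. Footprint totals were 29706058 for wild-type and 21855176 for ACA-K, and with the plasmid 8552107 (WT-URA), 9127829 (AGG-OE) and 6011287 (the AGG-QC strain). Counts were divided by length and by the total over 4964 genes, and TE is the ratio of these shares. Genes were called past 1.5-fold. Exact Clopper-Pearson intervals (shares) and conditional binomial intervals (ratios) at 95% cover counting error only. Symbols come from RefSeq, assembly R64, which matched 5269 of 5373 names, and no coordinates were used. Named genes are the 3 highest and 3 lowest members in wild-type level and TE and in each comparison, the 3 largest and 2 smallest pair ratios and the members without a partner. Other genes were named after their values were seen. The values of 1 member are not reported here by name. Functions were tested on simulated data. The tools were matplotlib 3.10.9, pandas 2.3.3, scipy 1.17.1, numpy 2.4.6 and Python 3.11.15. Alternatives were other scalings, a minimum of 100 footprints, the first 25% of codons left out, copies summed, and, added after seeing the data, the highest codons left out. Promoters, protein sequences and codon identities were not analysed here.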

Additional observations from a re-analysis of the deposited data

How the results depend on the processing

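No median changed sign under any alternative. For the median log2 footprint ratio in ACA-K (-0.17), scaling without ribosomal protein genes gave -0.20, centring on the median gene -0.14, leaving out the first 25% of codons -0.20, summing copies -0.20, and leaving out the highest codons, chosen after seeing the data, -0.22. The last also gave 3 members past 1.5-fold in place of 5 (without RPS4A and RPS10B), and in AGG-QC 1 in place of 2 (without RPS29B). RPS4A was close to the cut and stayed past it (-0.61) with library totals that kept these codons. In WT-URA against wild-type, leaving out the highest codons gave 12 members past 1.5-fold in place of 10. Of all 4964 genes, 198 (ACA-K), 245 (AGG-QC) and 2134 (WT-URA against wild-type) then passed 1.5-fold in either direction. Centring gave -0.05 for mRNA and -0.18 for TE in ACA-K, 0.13 for footprints and 0.26 for mRNA in AGG-OE, -0.53 for footprints and -0.31 for TE in AGG-QC, and 1 member past 1.5-fold in TE in AGG-QC in place of 0. In WT-URA against wild-type, scaling without ribosomal protein genes gave -0.36 in footprints and -0.39 in mRNA, centring -0.63, -0.60 and, for TE, -0.07, leaving out the first 25% of codons -0.47, summing copies -0.47, and leaving out the highest codons -0.32. There, centring put 23 members past 1.5-fold lower in footprints and 20 in mRNA, in place of 10 and 5. In AGG-QC it put 11 past it in footprints in place of 2. These centred counts were not made over all genes. Over the genes listed in all 5 strains alone, the members' shares of footprints were 6.48%, 5.78%, 4.53%, 4.73% and 3.39%. The causes of these shifts were not tested. No replicate could be left out, since each strain has 1 library. The planned checks of promoter motifs, of densities by residue and of protein identity were not run, because no sequences were used here. AGG-QC had the fewest footprints, with 668 on RPS14B, which widened its intervals.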
